A study of Saccharomyces cerevisiae with 36 samples.

Results

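SAGA is a large coactivator complex of budding yeast, and 10 of its subunit genes are described here among 5656 genes measured. The members were chosen by gene name: GCN5, ADA2, NGG1, SPT3, SPT7, SPT8, SPT20, HFI1, SGF73 and UBP8. All 10 were found on the array, each with 1 probe set. The arrays followed Saccharomyces cerevisiae in continuous culture, where the cells pass through a repeating metabolic cycle. There were 36 Affymetrix arrays of total RNA, which covered 3 successive cycles of 12 intervals of about 25 min. The intervals are called positions 1 to 12, and the 3 arrays of a position in the 3 cycles form a group. All groups shared the same culture type, and no genotype, strain or treatment is given in the sources used here. Since no separate cultures are labelled, the spread behind every p-value is that between arrays, which may be technical.

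SAGA places acetyl groups on histone H3 at promoters, removes ubiquitin from histone H2B and helps to deliver the TATA-binding protein, TBP. Its acetyltransferase takes the acetyl group from acetyl-CoA, and in the metabolic cycle the complex is known to act at growth genes when acetyl-CoA is abundant. Several of its subunits, among them Spt7, Sgf73 and Ada3 (the product of NGG1), are known to carry acetyl groups themselves. These are facts about the protein complex. The arrays measured only the RNA of its genes, as an intensity in multiples of the array's median. In cultured cells, fewer cells making a transcript and less RNA per cell cannot be told apart.

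By a fitted smooth course, the SAGA genes changed less over the cycle than most genes. A cosine with a period of 12 positions was fitted to each gene on the log2 scale, and its peak-to-trough difference is called the swing. Of the 10 members, 3 passed limma's F test at an adjusted p under 0.05: NGG1, SPT20 and HFI1. In the whole array 78.8% of genes passed. The fitted swings of the members lay between 0.03 and 0.51 log2 with a median of 0.29, whereas the median over all genes was 0.77. None of the members had a swing above that median, and 70.7% of all genes had a larger swing than GCN5, the member with the largest. A swing of at least 1 log2, which is 2-fold, was found with a passing test in 38.1% of genes and in 0 of 10 members, where 3 members had an unadjusted p under 0.05. The swing plus 2 standard errors lay between 0.29 and 0.92 log2 on the deposited scale and so stayed under 2-fold there for all 10 members, against 43.2% of all genes. On a scale set by bacterial control probes, described at the end, it did so for 5 of the 10, and the share of all genes was not computed there.

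**Figure D1:**
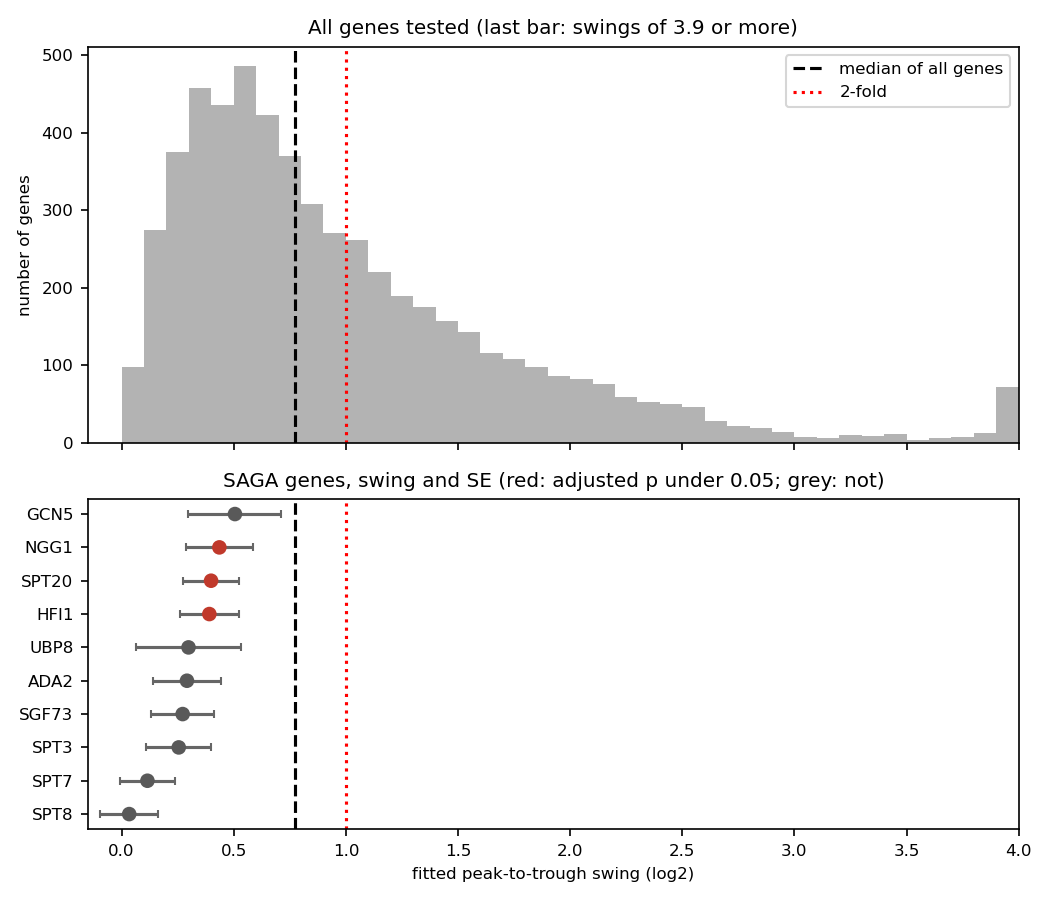
Fitted peak-to-trough swing in log2, as a histogram of all 5656 genes (upper panel) and for the 10 SAGA genes with their standard errors (lower panel). The dashed line is the median of all genes at 0.77 and the dotted line marks 2-fold; all 10 SAGA genes lie left of the dashed line.

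Several members had low signal, and how far this limited their reading was not tested. By mean intensity ADA2, UBP8, SPT20 and NGG1 were among the dimmest 25% of all genes, SPT3, GCN5, SPT8 and HFI1 among the next 25%, and SGF73 and SPT7 among the 25% above these. In the dimmest set 68% of genes passed the cycling test, and 2 of the 4 members there did. In the next set 77.8% passed, and 1 of 4 members did. In the set above, 81.7% passed, and 0 of 2 members did in limma, with 0 also at an unadjusted p under 0.05. The median swing of all genes was 0.64, 0.74 and 0.80 log2 in these sets. The spread between arrays of the same position was 0.27 log2 at the median member and 0.31 at the median gene, while the spread between position means was 0.21 and 0.37.

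GCN5 encodes the catalytic acetyltransferase. Its 3 arrays at position 11, the position with the highest mean, read 2.05, 1.28 and 1.18 in cycles 1, 2 and 3, and those at position 8, with the lowest mean, read 0.967, 0.911 and 0.404. These groups did not overlap. Such separation was common, however, because the extreme positions were picked from 12: it held for 92.9% of all genes and for 6 of the 10 members. From position 4 to position 7 the position means of GCN5 stayed between 0.821 and 1.04. The fitted swing was 0.51 ± 0.21 log2 (SE), with an adjusted p of 0.0779 in limma. A single array mattered here. At position 1 the arrays of cycles 1 and 3 read 1.44 and 1.45, whereas that of cycle 2 read 0.301, the lowest of all 36. Without that array the swing was 0.65 log2 (adjusted p = 0.00155), and without the array of position 8 in cycle 3 it was 0.51 (adjusted p = 0.0392).

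ADA2 encodes the adaptor that binds Gcn5 and stimulates its activity on nucleosomes. It was the dimmest member, with arrays between 0.156 and 0.463 and a median of 0.292. The arrays of position 8 read 0.304, 0.463 and 0.331, and those of position 6 read 0.156, 0.338 and 0.179. The groups overlapped, since cycle 2 was the highest of both. The swing was 0.29 ± 0.15 log2 (SE; adjusted p = 0.201 in limma).

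NGG1 encodes Ada3, which joins Gcn5 and Ada2 in the acetyltransferase module. Its arrays read 0.902, 1.24 and 1.22 at position 3 and 0.524, 0.638 and 0.747 at position 1, with no overlap. The position means did not follow a simple rise and fall: they were 1.12 and 1.07 at positions 3 and 4, 0.671 at position 9, and 1.04 at position 12, before 0.637 at position 1. NGG1 passed the cycling test with a swing of 0.44 ± 0.15 log2 (SE), which is 1.35-fold, and a fitted peak at position 2.74 (adjusted p = 0.029 in limma). It also passed the test of any difference among the 12 positions (adjusted p = 0.0186), which 74.6% of genes and 2 of 10 members passed. The call of cycling was lost without any 1 of 5 arrays. The swing was 0.40 without the array of position 3 in cycle 2 (adjusted p = 0.0598), 0.40 without that of position 3 in cycle 3 (0.0582) and 0.39 without that of position 4 in cycle 3 (0.0547). It was 0.41 without the array of position 8 in cycle 3 (adjusted p = 0.0501) and 0.38 without that of position 9 in cycle 2 (adjusted p = 0.0673). The call was also lost without cycle 2 (0.47, adjusted p = 0.0788) and without cycle 3 (0.28, adjusted p = 0.367).

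SPT7 encodes a scaffold subunit of the core and was the flattest of the brighter members. Its arrays read 2.53, 2.71 and 2.25 at position 12, with the highest mean on the log2 scale, and 1.83, 1.62 and 2.39 at position 8, with the lowest. These groups overlapped. All 12 position means lay between 1.95 and 2.50, and the means of cycles 1, 2 and 3 were 2.19, 2.32 and 2.08. The swing was 0.12 ± 0.12 log2 (SE; adjusted p = 0.672 in limma), so that the swing plus 2 standard errors was 0.36.

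SPT20 encodes a core subunit that SAGA needs to hold together. Its highest position was position 2, with 0.702, 0.826 and 0.592, and its lowest was position 12, with 0.435, 0.615 and 0.365. These overlapped by the arrays of cycle 2 at position 12 and cycle 3 at position 2. The means at positions 2 to 5 were between 0.630 and 0.707 and those at positions 10 to 12 between 0.471 and 0.483. SPT20 passed the cycling test with a swing of 0.40 ± 0.13 log2 (SE), which is 1.32-fold (adjusted p = 0.0156 in limma). Its fitted peak was at position 4.33, and the peaks in the single cycles were at positions 3.98, 4.61 and 4.28. Of the 10 members, SPT20 and then HFI1 had the smallest spread of these single-cycle peaks. The call held without each of the 36 arrays in turn, with a highest adjusted p of 0.0377. It was lost without any 1 of the 3 cycles, with swings of 0.43, 0.37 and 0.40 log2 without cycles 1, 2 and 3 (adjusted p = 0.0633, 0.0867 and 0.0747).

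HFI1 encodes Ada1, an adaptor of the core. Outside positions 1, 2 and 9 its position means lay between 1.06 and 1.25. Position 9 read 2.51, 1.18 and 1.21, so the high mean of 1.63 ± 0.757 (SD, n = 3) came from the array of cycle 1. Position 1 read 0.533, 0.945 and 1.08, where again the array of cycle 1 stood apart. HFI1 passed the cycling test with a swing of 0.39 ± 0.13 log2 (SE) and a peak at position 8.57 (adjusted p = 0.0263 in limma). The peaks in the single cycles were at positions 8.48, 8.29 and 9.09, while the swings were 0.68, 0.24 and 0.26 log2. Without the array of position 9 in cycle 1 the swing was 0.28 (adjusted p = 0.0709). With arrays weighted by their quality it was 0.22 (adjusted p = 0.137), and without cycles 1, 2 and 3 it was 0.25, 0.47 and 0.46 (adjusted p = 0.14, 0.0901 and 0.0782).

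SPT3 and SPT8 encode the subunits that contact TBP. SPT3 read 1.06, 1.23 and 1.12 at position 9, against 0.617, 0.753 and 0.812 at position 8 and 0.781, 0.763 and 0.463 at position 11. All 3 arrays of position 9 therefore lay above all arrays of these other positions. Its swing was 0.25 ± 0.15 log2 (SE; adjusted p = 0.257 in limma), but the test of any difference among positions passed (adjusted p = 0.034). SPT8 read 1.62, 1.49 and 1.09 at position 9 and 0.713, 1.16 and 0.882 at position 11, with overlap. Its swing of 0.03 ± 0.13 log2 (SE) was the smallest of the members, and 0.124% of all genes had a smaller one. The adjusted p was 0.968.

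UBP8 encodes the protease that removes ubiquitin from H2B, and SGF73 encodes the subunit that anchors this module to the complex. UBP8 was noisy. It read 0.944, 0.689 and 0.746 at position 11 and 0.364, 0.321 and 0.237 at position 7, with no overlap and a ratio of means of 2.58. Its highest array, 1.30, was that of position 9 in cycle 1, where cycles 2 and 3 read 0.479 and 0.592. The swing was 0.30 ± 0.23 log2 (SE; adjusted p = 0.482 in limma). SGF73 read 2.87, 2.25 and 2.83 at position 3 and 1.31, 1.56 and 1.83 at position 12, with no overlap. Its swing was 0.27 ± 0.14 log2 (SE; adjusted p = 0.187), and its highest array, 3.32, was that of position 2 in cycle 3.

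**Figure D2:**
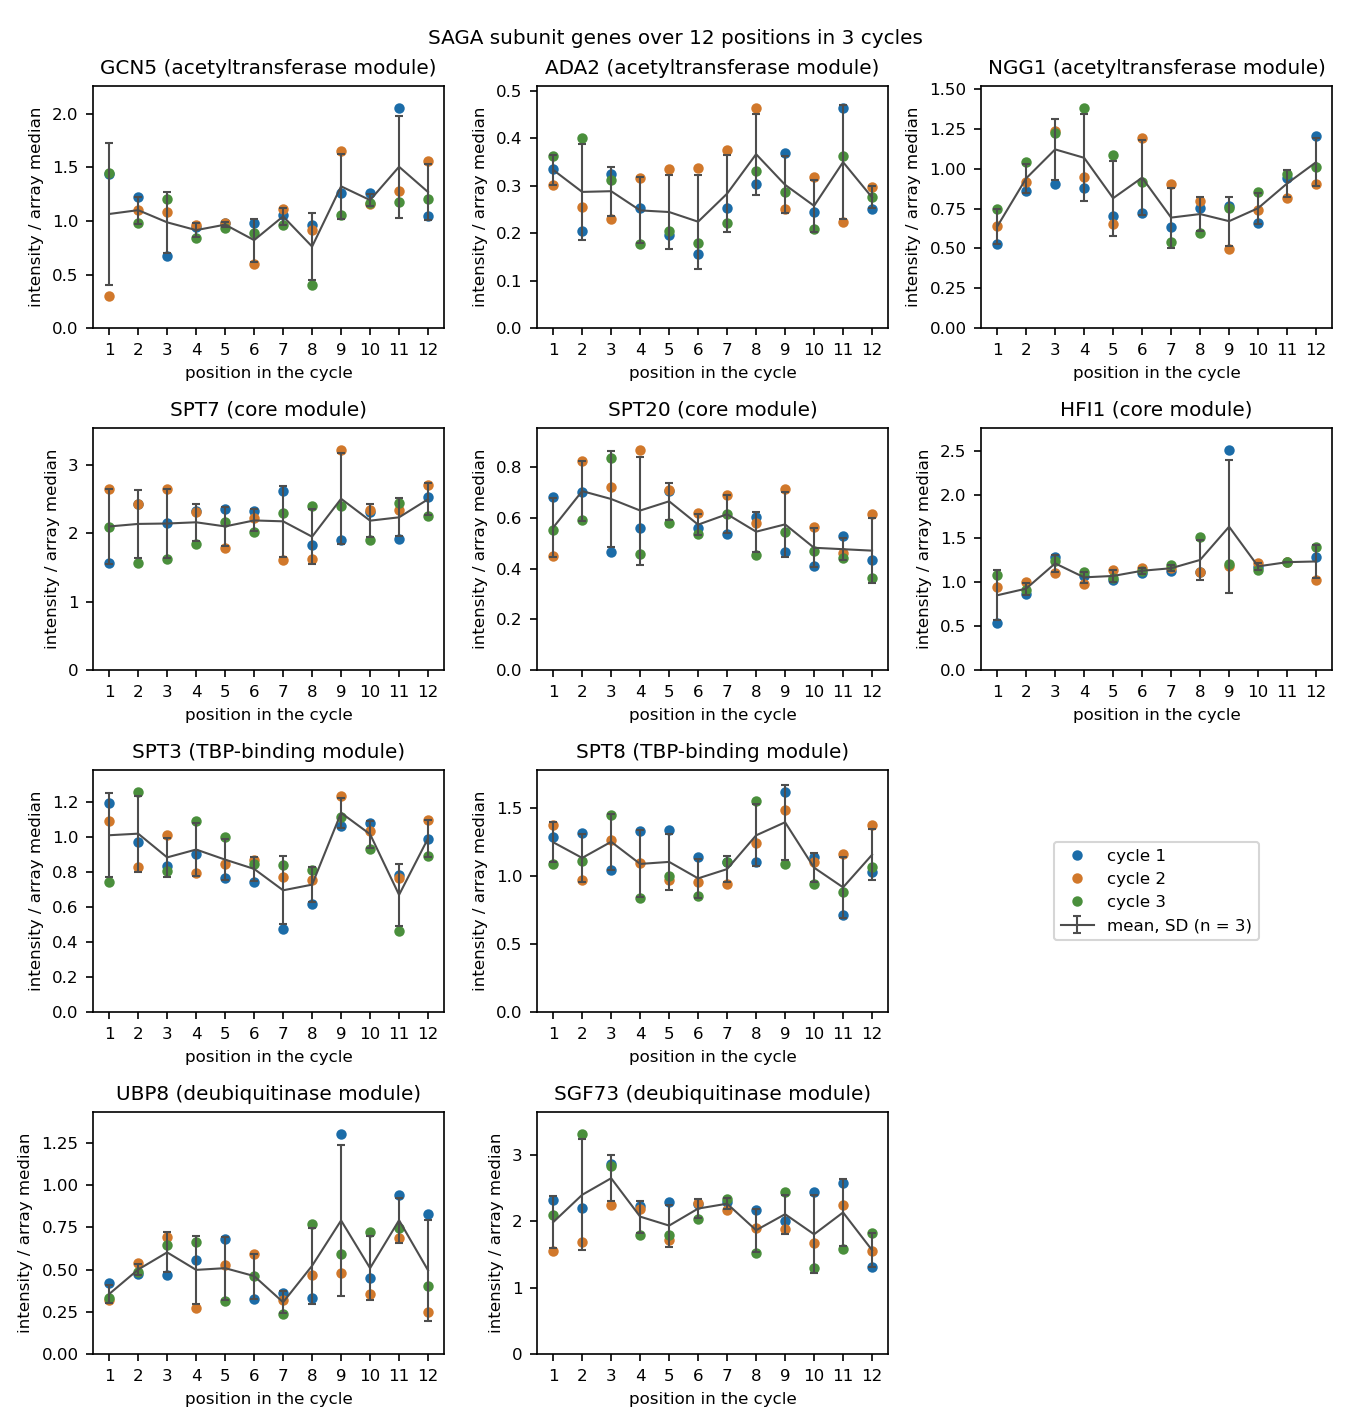
Intensity in multiples of the array median (vertical axes, from 0) against position in the cycle for the 10 SAGA genes, with each array as a point coloured by cycle and the mean with its SD (n = 3) as a line. The ratio of the means at the highest and lowest positions runs from 1.28 for SPT7 to 2.58 for UBP8. The array of position 9 in cycle 1 stands out for HFI1 at 2.51 and for UBP8 at 1.30, and that of position 1 in cycle 2 for GCN5 at 0.301.

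Each position was then compared with the mean of the other 11, and position 9 held 2 of the 4 calls. Of 120 pairs of member and position, 4 passed at an adjusted p under 0.05 in limma, while 27.9% of such pairs passed over all genes. HFI1 was lower at position 1 by -0.49 ± 0.16 log2 (SE; adjusted p = 0.0223), where 9.48% of genes were called lower. HFI1 was higher at position 9 by 0.45 ± 0.16 (adjusted p = 0.0208) and SPT3 was higher there by 0.39 ± 0.16 (adjusted p = 0.0461). At that position 24.3% of genes were called higher, so 2 of 10 members is near the background. SPT3 was lower at position 11 by -0.44 ± 0.16 (adjusted p = 0.0363), where 15.1% of genes were called lower.

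Each of the 4 calls could be lost by leaving out 1 array. Without the array of position 1 in cycle 1 the difference of HFI1 at position 1 was -0.20 log2 (adjusted p = 0.454), and without that of position 9 in cycle 1 its difference at position 9 was 0.11 (adjusted p = 0.647). With arrays weighted by their quality the latter was 0.24 (adjusted p = 0.453). The difference of SPT3 at position 11 was -0.21 (adjusted p = 0.458) without the array of position 11 in cycle 3. Its call at position 9 lay close to the threshold: it held in 19 of 36 fits that each left out 1 array, while the difference stayed between 0.33 and 0.43, with the lowest value without the array of position 9 in cycle 2 (adjusted p = 0.169). Conversely, UBP8 at position 11, with 0.68 ± 0.27 (SE; adjusted p = 0.0556), passed in 6 such fits, for example without the array of position 9 in cycle 1 (0.71, adjusted p = 0.0224).

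At position 9 the difference from the other positions was above 0 for 8 of the 10 members, with a median of 0.25 log2 over the members and of 0.03 over all genes. It was above 0 for 51.9% of all genes. NGG1 and SPT20 were the members below 0, at -0.35 and -0.01. The array of cycle 1 at position 9 was far above those of cycles 2 and 3 for HFI1 (2.51 against 1.18 and 1.21). For UBP8 it was as well (1.30 against 0.479 and 0.592). It was the lowest of the 3 arrays for SPT3, SPT7 and SPT20. At position 3, 8 of 10 members were also above 0, with a median of 0.12 against 0.02 for all genes. At position 5, 9 of 10 were below 0, with a median of -0.06 against -0.02. At the other positions between 3 and 7 members were above 0. These counts describe the members and were not tested.

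**Figure D3:**
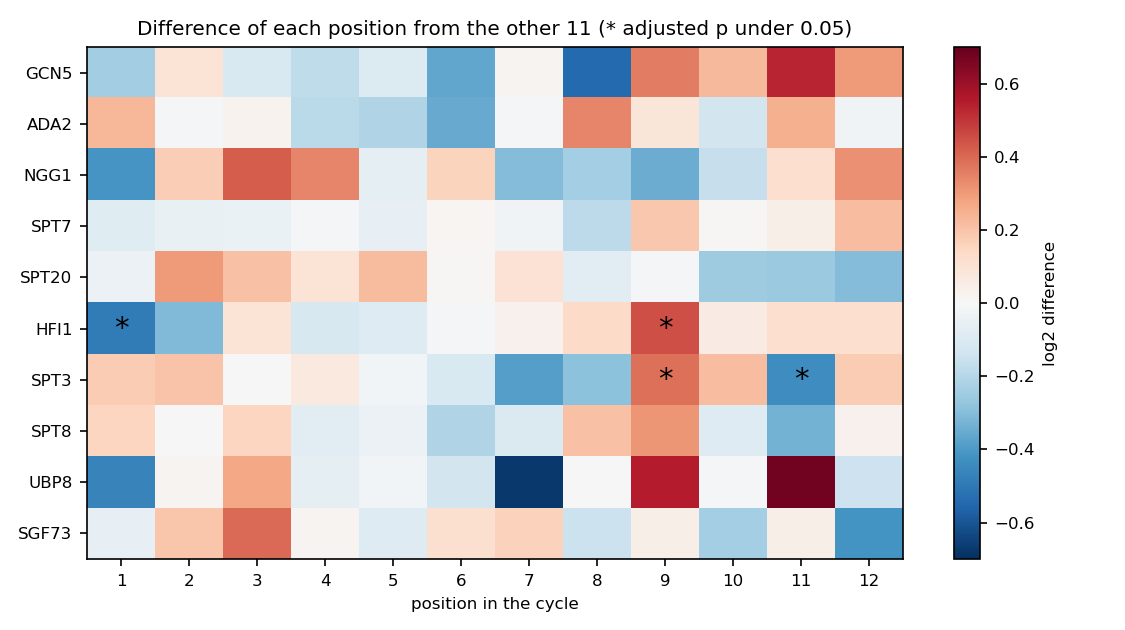
Log2 difference of each position from the mean of the other 11 (colour, red higher and blue lower) for the 10 SAGA genes (rows) at the 12 positions (columns). The 4 asterisks mark an adjusted p under 0.05: HFI1 at positions 1 and 9, and SPT3 at positions 9 and 11.

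The cycles did not separate the members. No member passed limma's test for a level that differed between the 3 cycles (0 of 10, with 1 at an unadjusted p under 0.05), a test that 0.053% of genes passed. The lowest adjusted p was 0.859, for SPT20, whose means in cycles 1, 2 and 3 were 0.556, 0.652 and 0.538. No member passed the test for a swing that differed between cycles (0 of 10, with ADA2 and SPT7 at an unadjusted p under 0.05), which 0.0354% of genes passed. Its power was low in simulated data for this comparison over 5656 genes. A swing of 1 log2 present in cycle 3 alone was recovered in 13.5% of the 200 genes given it. All genes were otherwise level in the simulation, so this share is not the recovery in the real data. The fitted peaks of ADA2 in the single cycles were at positions 10.97, 6.96 and 12.1, and those of SPT7 at positions 5.10, 12.5 and 8.86, where a peak past 12 lies between positions 12 and 1. Added terms with a period of 6 positions passed for 0 of 10 members, with SPT8 and UBP8 at an unadjusted p under 0.05, and for 12.4% of genes. The lowest adjusted p was 0.139, for UBP8, with a 6-position swing of 0.60 log2.

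The members did not share a course. Over the 36 arrays, the 45 pairs of members had a median Pearson correlation of 0.011, and 27 were above 0. The median over all pairs of genes was 0.003. The arrays are common to both genes of a pair and to successive positions, so these are descriptions. No pair of members exceeded 0.5, whereas 23.9% of all gene pairs did so with either sign. The highest value was 0.48 for HFI1 and UBP8, which share the high array of position 9 in cycle 1, and the lowest was -0.42 for SPT20 and HFI1 of the core. Within modules, SPT3 and SPT8 had 0.28, GCN5 and ADA2 had 0.06, GCN5 and NGG1 had 0.01, and UBP8 and SGF73 had -0.07. Among 8 pairs within a module 4 were above 0. The genes other than the 10 members, above the dimmest 25%, that were most like the mean of the standardized members were RAP1, CHD1, TYS1, POP2 and PDC5, with correlations between 0.60 and 0.64 over 36 arrays. CHD1, a chromatin remodeller, is also in the list of other SAGA genes that follows.

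Other genes of transcription and chromatin were compared as lists. Of 12 other genes of SAGA and of the related SLIK and ADA complexes, 8 passed the cycling test, 0 of them with 2-fold, and their median swing was 0.48 log2. TRA1, the subunit that binds activators, had arrays of 5.82, 6.25 and 7.68 at position 1 and of 3.10, 3.50 and 2.70 at position 8, and the groups did not overlap. Its swing was 0.70 ± 0.13 log2 (SE) with a peak at position 11.8 (adjusted p = 4.79e-05 in limma). AHC2, of the ADA complex, had the largest swing of this list, 0.82 ± 0.16, with a peak at position 3.61 (adjusted p = 0.000149). TAF5, shared by SAGA and TFIID, had 0.17 ± 0.13 and did not pass (adjusted p = 0.476). The called genes of this list were divided in time, 3 with fitted peaks between positions 2 and 8 and 5 elsewhere.

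Of the 13 genes of TFIID, the other complex that delivers TBP, and of TBP regulators, 9 passed, 0 with 2-fold, with a median swing of 0.47 log2. BUR6, of the negative cofactor that binds TBP, had 8.28, 7.08 and 5.54 at position 3 and 2.85, 3.12 and 2.72 at position 1, and a swing of 0.99 ± 0.14 log2 (SE; adjusted p = 3.77e-07 in limma). TAF2 had 0.79 ± 0.18 with a peak at position 5.28, and TAF8 had 0.20 ± 0.15 and did not pass (adjusted p = 0.448). SPT15, the gene of TBP itself, was named outside the rule for lists, after its values were seen, because the array holds 3 control probe sets for it. Its own probe set had a swing of 0.63 ± 0.18 and peaked at position 9.58 (adjusted p = 0.00862), and the 3 control probe sets had swings of 0.40, 0.63 and 0.45 with peaks at positions 9.15, 8.91 and 9.42.

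Among 20 genes of other histone acetyltransferase complexes 15 passed, 4 with 2-fold, and the median swing was 0.53 log2. ELP3, of the Elongator complex, had a swing of 1.55 ± 0.24 log2 (SE) and peaked at position 8.97 (adjusted p = 2.27e-06 in limma), and EAF1, of NuA4, had 1.32 ± 0.14 and a peak at position 3.91. NTO1, of NuA3, had 0.12 ± 0.12 and did not pass. Of 14 histone deacetylase genes 9 passed, 3 with 2-fold, with a median of 0.56. Above the dimmest 25% of genes, HOS3 had 1.09 ± 0.13, HST2 had 0.69 ± 0.20, and SIN3, which did not pass, had 0.15 ± 0.13. Among the dimmest, HST3, HDA1 and HST4 had 1.77, 1.17 and 0.87, and HDA3, which did not pass, had 0.14. Of the 14 genes 8 were among the dimmest 25% of genes.

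The lists for H2B ubiquitination and for the SWI/SNF remodeller had shares nearer to that of SAGA. In the first, 3 of 9 genes passed, 0 with 2-fold, with a median swing of 0.42 log2. UBP10, the other H2B ubiquitin protease, had 0.72 ± 0.19 (SE), LGE1 had 0.70 ± 0.10, and PAF1, which did not pass, had 0.14 ± 0.13. Of 11 SWI/SNF genes 5 passed, 2 of them with 2-fold, with a median of 0.40. SNF11 had 1.77 ± 0.21, SWI1 had 1.02 ± 0.21, and SWP82, which did not pass, had 0.12 ± 0.12. On the deposited scale the share of 30% among the SAGA members was the lowest of the 8 lists, and the difference from the other lists was not tested. The share depends on the scale: after scaling to the bacterial controls, 6 of 10 members and 55 of the 87 genes in the other lists passed. The lists were not counted separately on that scale, so their ranking there is not known.

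Genes of acetyl-CoA supply and use stood at the other end of the lists, but not far from all genes. All 8 passed, where 78.8% of all genes did, and 3 of 8 passed with 2-fold, where 38.1% of all genes did. Their median swing was 0.84 log2, against 0.77 for all genes. All 8 were among the brightest 25% of genes, where no SAGA member lies. ACS1, an acetyl-CoA synthetase, read 66.1, 64.8 and 70.7 at position 3 and 3.65, 4.91 and 5.20 at position 10, with no overlap and a swing of 3.84 ± 0.33 log2 (SE; adjusted p = 6.9e-12 in limma). ACH1, which moves CoA between acetate and other acids, had 2.29 ± 0.22 and a peak at position 0.70, between positions 12 and 1. ACC1, which uses acetyl-CoA for fatty acid synthesis, had the smallest swing, 0.42 ± 0.11. The swing of ACC1 was thus within the range of the SAGA members.

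**Figure D4:**
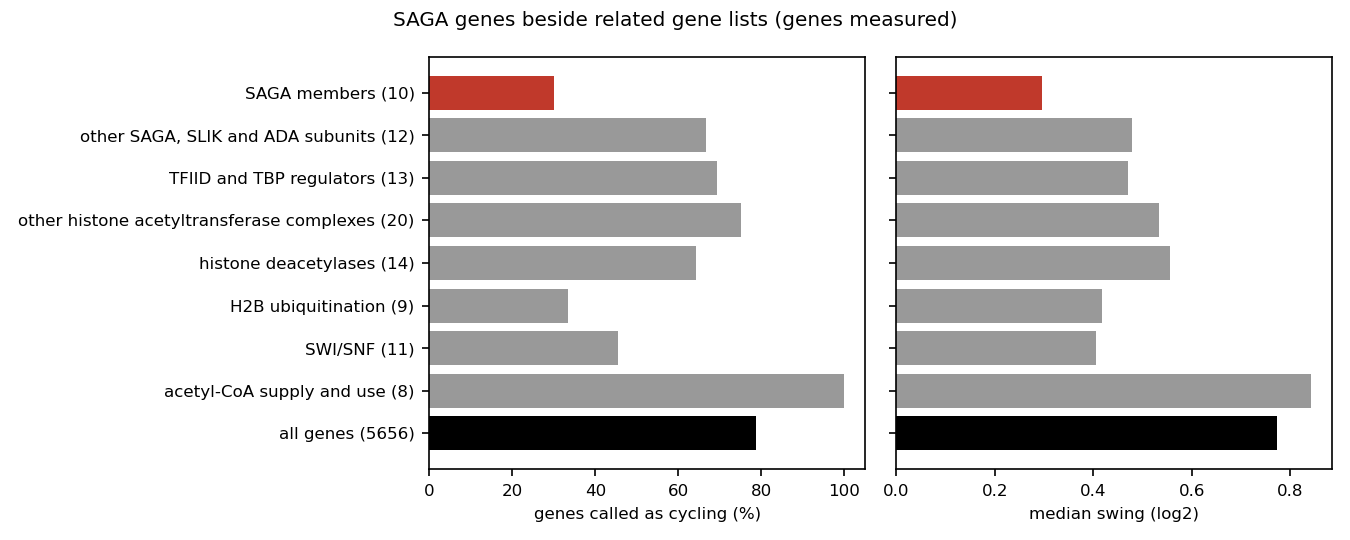
Share of genes called as cycling in percent (left) and median swing in log2 (right) for the 10 SAGA genes (red), 7 related gene lists (grey) and all genes (black), with the number of genes measured in brackets. On the deposited scale, which is shown, SAGA stands at 30% and 0.29 log2, against 78.8% and 0.77 for all genes.

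The size of the swings depended on how the arrays were scaled. The deposited values have the same median on each array, and on that scale the mean of the 9 probe sets of bacterial control transcripts itself had a swing of 0.53 log2 with a peak at position 3.45. It was 0.43 log2 above its mean at position 3 and 0.34 below it at position 12. No member had a swing above that of these controls. When each array was scaled to the controls instead, 6 of 10 members passed, and 69.0% of all genes did. The called members were GCN5, ADA2, SPT7, HFI1, SPT8 and UBP8, of which HFI1 had also passed on the deposited scale. Their swings lay between 0.55 log2 for SPT8 and 0.93 for GCN5, and their peaks between positions 9.08 and 10.3. This scaling subtracts the course of the controls from every gene. A gene that was level on the deposited scale gains by it a swing of 0.53 log2, with a fitted peak opposite to that of the controls. The closeness of these peaks is therefore not separate evidence of a shared course. NGG1 and SPT20 no longer passed, with 0.20 and 0.25 log2 (adjusted p = 0.754 and 0.553 in limma). The median swing was 0.59 over the members and 0.90 over all genes, so the members' median stayed below that of all genes on both scales, although GCN5 at 0.93 was above the latter. On the scale of the controls the swing plus 2 standard errors was above 1 log2 for 5 of 10 members, with 1.46 for GCN5 as the highest. The share over all genes was not computed on that scale, so this count has no background beside it. Which scale is nearer to RNA per cell was not tested.

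**Figure D5:**
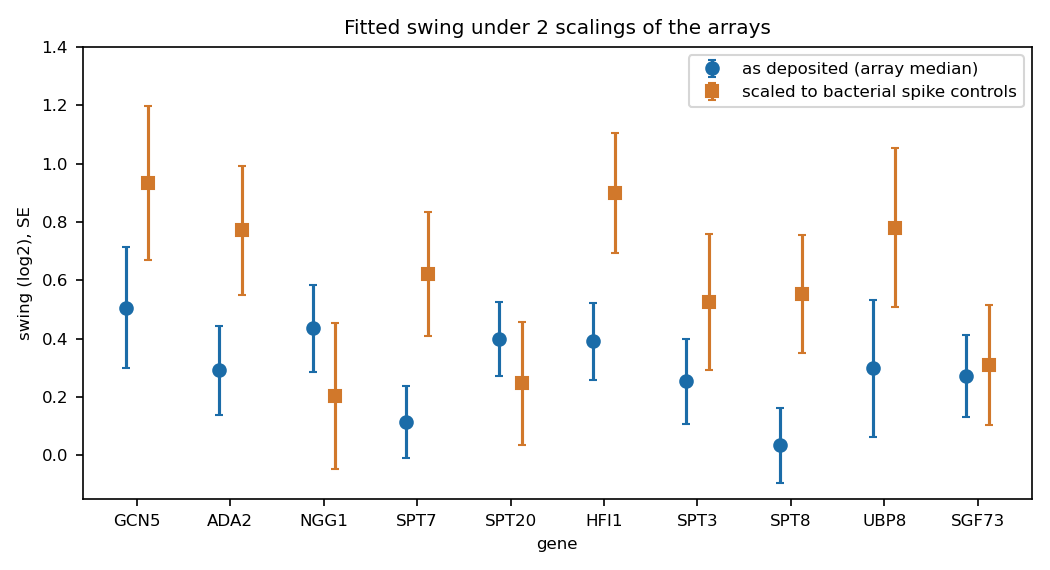
Fitted swing in log2 with its SE for the 10 SAGA genes, on the deposited scale of equal array medians (circles) and after scaling each array to the bacterial controls (squares). Scaling to the controls raises GCN5 from 0.51 to 0.93 and SPT7 from 0.12 to 0.62, and lowers NGG1 from 0.44 to 0.20.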

How the data were processed

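The deposited table holds 1 intensity for each probe set and array, which the authors gave on a linear scale relative to the array median. That median is 1 on each array, and the software behind the probe-set values is not named in the sources. Among 9335 probe sets, 6504 carried a unique gene symbol in the annotation given for the platform, which can be old, and all of these matched the R64 gene table. For each of the 5656 genes the brightest probe set by mean was used, and no member had another. A pseudocount of 0.0516, the 10th percentile of values above 0, was added before log2 was taken, so changes of dim genes are understated.

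Tests used limma 3.58.1 in R 4.3.3, with an intensity-dependent prior variance and p-values adjusted by Benjamini-Hochberg over all genes. Python 3.11.15, pandas 2.3.3, numpy 2.4.6 and matplotlib 3.10.9 made tables and figures. Members, lists and tests were chosen with earlier results of these data known. Named genes were all 10 members, in each list the 2 largest swings and the smallest above the dimmest 25%, and the 5 genes most like the members. The number of arrays limits the precision. In simulated data made from 5656 genes, 200 genes were given a swing. The cycling test recovered 34% of these at 0.5 log2 and 92.5% at 1 log2. In the real data 78.8% of genes passed, which makes the adjustment of p-values less strict than in the simulation. The simulated shares are therefore not the recovery in the real data. Alternatives covered pseudocount, scaling, dim genes, error model, cycle block and arrays left out. SUS1 of the SAGA list was not analysed here.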

Additional observations from a re-analysis of the deposited data

How the results depend on the processing

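Of the 10 members, 3 were called as cycling with either other pseudocount and without the mean-variance trend. The count was also 3 with the second probe sets. No member has a second probe set, so the members' values were the same there and this setting cannot test them. Over all genes between 78.3% and 78.7% passed in these fits. The count was 4 with quantile normalization (78.4% of all genes), which added ADA2. It was 4 with array weights (79.2% of all genes), which added GCN5 and SGF73 and lost HFI1. The count was 2 with scaling to the trimmed array mean (78.3% of all genes) or with the 12-level position factor (74.6%). It was 6 with scaling to the bacterial controls (69.0%), and 1 of the 6 members left above the dimmest 25% of genes (82.6% of all genes there). Leaving out a whole cycle gave between 1 and 2 calls: NGG1 without cycle 1, GCN5 and ADA2 without cycle 2, and SPT3 without cycle 3. Over all genes 69.2%, 70.1% and 69.8% passed without cycles 1, 2 and 3, against 78.8% with all 3 cycles. SPT20 and HFI1 were thus called in none of these fits, which have fewer arrays. Leaving out single arrays, an alternative chosen after seeing the data, gave between 2 and 4, and the shares over all genes were not computed there. With scaling to the bacterial controls NGG1 and SPT20 had swings of 0.20 and 0.25 log2, with peaks more than 3 positions away from those on the deposited scale. The course of the controls is subtracted from every gene in this scaling, and why the controls had that course was not tested. The 4 calls of a member at a position became 1 with the bacterial controls, 8 with array weights, 5 with quantile normalization or the trimmed mean, and between 1 and 3 without a cycle. The shares over all genes were not computed for these counts of calls at a position. Scaling to the bacterial controls also gave 1 member, SPT8, whose swing differed between cycles (adjusted p = 0.0454 in limma). The share of all genes that passed this test on that scale was not computed, so this count has no background beside it. The counts for a 6-position term and for level between cycles were 0 under all alternatives run for them. Of the genes in the 7 related lists, 57 were called as cycling, and between 44 and 61 under the alternatives. The cycle number was not used to pair the arrays in the main tests of cycling and of positions. Deviations from the position means had a median correlation of 0.017 within a cycle and of -0.016 between cycles. Within a cycle the correlations lay between -0.68 and 0.47, and 70 of 198 pairs of arrays were above 0.1. Some arrays of a cycle thus shared deviations, which these tests do not take into account. With the cycle number as a replicate block, 3 members were called as cycling, beside 78.5% of all genes. Of the pairs of member and position 3 were called, as SPT3 at position 9 had an adjusted p of 0.0503 in limma. The intensities of ADA2, UBP8, SPT20 and NGG1 were low, and the pseudocount understates changes of such genes.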
